A study of Danio rerio with 6 samples.

Results

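The baseline microRNA (miRNA) signal of the adult zebrafish heart was described from the 3 uninjured samples of a 6-sample array study of heart regeneration. Each sample was total RNA of pooled hearts from adult Ekkwill zebrafish, taken at 0 hours after amputation, that is without surgery, and the design calls the replicates biological. The other 3 samples came from hearts of the same strain 6 hours after resection and were not analysed here. Replicates 1 and 3 were labelled with Cy3 and replicate 2 with Cy5. Dye and replicate could thus not be told apart, and an effect of dye was not tested. All 218 zebrafish miRNA probes on the array were used, each printed in 12 spots, and a probe's signal was the mean intensity of its spots less that of the nearest empty spots. A heart pool mixes muscle, vessel, valve, blood and other cells, so fewer cells of a type and less RNA per cell could not be told apart.

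A miRNA is cut from a hairpin precursor, one arm of which is usually loaded into an Argonaute protein while the other, written with an asterisk, is degraded. The loaded strand finds messenger RNAs mainly through its seed, bases 2 to 8 from its 5′ end, and miRNAs that share a seed form a family with overlapping targets. In vertebrate hearts the known muscle miRNAs are miR-1, miR-133 and miR-499, the last of which lies in an intron of a myosin heavy chain gene. miR-126 is the miRNA of endothelium, and miR-451 and miR-144 are made from one transcript in red blood cells.

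The target sequences of the probes that led the signal, taken from the deposited array files, are shown 5′ to 3′ with the seed in capitals. The first lines give the miRNAs known from heart muscle and the probe miR-206, which shares its seed with miR-1.
miR-499: uUAAGACUugcagugauguuua
miR-1: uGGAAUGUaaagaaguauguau
miR-206: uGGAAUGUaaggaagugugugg
miR-133a: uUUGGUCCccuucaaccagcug
miR-133b: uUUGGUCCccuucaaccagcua
miR-133c: uUUGGUCCcuuucaaccagcua
The next lines give bright members of the broadly expressed families, by shared seed, with the dimmer let-7g for its single-base difference from let-7a.
let-7a: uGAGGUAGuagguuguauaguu
let-7f: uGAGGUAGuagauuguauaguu
let-7c: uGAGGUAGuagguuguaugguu
let-7g: uGAGGUAGuaguuuguauaguu
miR-26a: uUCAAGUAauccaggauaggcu
miR-26b: uUCAAGUAauccaggauagguu
miR-30c: uGUAAACAuccuacacucucag
miR-30b: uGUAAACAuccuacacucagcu
miR-125b: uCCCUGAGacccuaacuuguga
miR-125a: uCCCUGAGacccuuaaccugug
miR-125c: uCCCUGAGacccuaacucguga
miR-23b: aUCACAUUgccagggauuacca
miR-23a: aUCACAUUgccagggauuucca
miR-27b: uUCACAGUggcuaaguucugca
miR-100: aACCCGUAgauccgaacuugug
miR-99: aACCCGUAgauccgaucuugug
The last lines give the vascular, blood and other single miRNAs, with the neuronal miR-124 as a probe that gave no signal above background.
miR-126: uCGUACCGugaguaauaaugc
miR-451: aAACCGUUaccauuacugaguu
miR-144: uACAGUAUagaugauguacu
miR-21: uAGCUUAUcagacugguguuggc
miR-92a: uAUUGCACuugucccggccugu
miR-124: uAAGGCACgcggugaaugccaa

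The 3 arrays were close to each other. Total background-subtracted miRNA signal was 835462 in replicate 1, 1013822 in replicate 2 and 960572 in replicate 3, in the scanner's linear intensity units. Over the 127 probes above background in every sample, Pearson's r of log2 signal was 0.993 between replicates 1 and 2, 0.981 between 1 and 3 and 0.986 between 2 and 3, as a description across probes of arrays that share a design. The median coefficient of variation over the spots of a probe was 7.84% to 10.1%. Empty spots differed more: their median was 179 in replicate 1, 43.0 in replicate 2 and 507 in replicate 3, and their SD after local subtraction was 5.70, 3.58 and 10.3. A probe counted as above background at 3 of these SDs, that is above 17.1, 10.8 and 30.9 in replicates 1, 2 and 3. The number of arrays limits the precision of every value. Brightness depends on the probe as well as on its RNA, so ranks, shares and ratios between probes are those of signal and not of molecule numbers.

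Of the 218 probes, 127 were above background in all 3 samples (58.3%) and 64 were above it in none (29.4%). A further 9 passed in 2 samples and 18 in 1 sample. The 127 probes held 99.9% of the summed miRNA signal. Their signals spanned a wide range, from a mean of 24.04 for miR-727*, an arm of a fish miRNA, to 51473 for miR-499. Of the 27 probes that passed in only some samples, 17 passed in replicate 1, 14 in replicate 3 and 5 in replicate 2, the Cy5 sample. None of these was above a mean of 41.0.

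**Figure D1:**
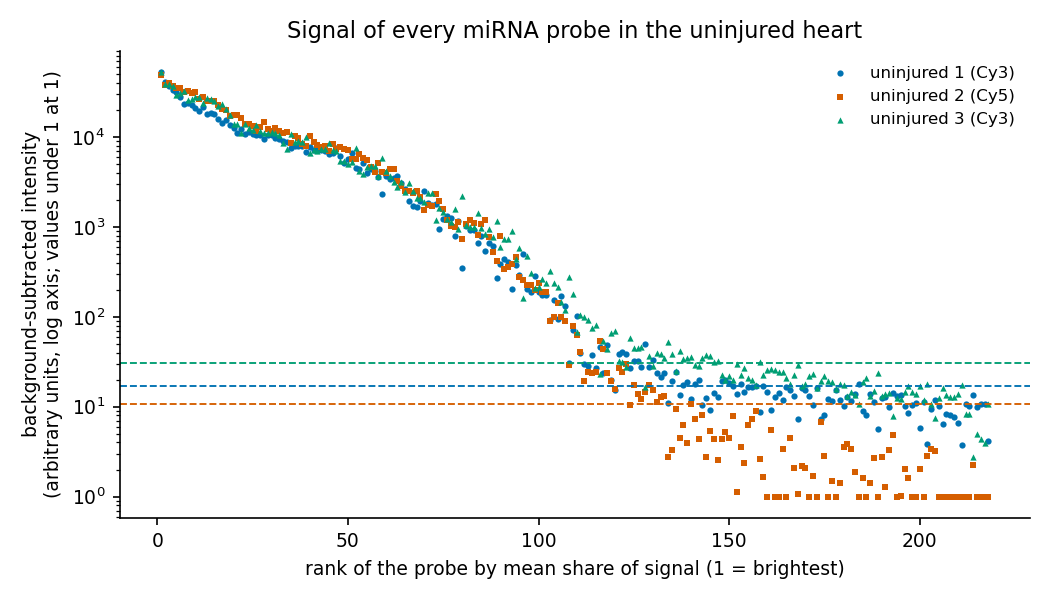
Background-subtracted intensity of every miRNA probe (log axis, arbitrary linear units, values under 1 drawn at 1) against its rank by mean share, with a marker for each of the 3 uninjured samples and a dashed line at the threshold of each sample. The markers of the 3 samples lie close together for most probes from miR-499 down to about the thresholds. Exceptions such as miR-133c and miR-101b are highest in replicate 3. Below the thresholds replicate 2 (Cy5) lies lower than replicates 1 and 3.

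The signal was concentrated in few probes. The brightest probe held 5.54% ± 0.756 of the summed signal (SD, n = 3), the 5 brightest held 21.3% ± 1.95, the 10 brightest 36.3% ± 1.27 and the 20 brightest 58.3% ± 0.655. In every sample 16 probes held 50% of the signal, and 51 to 53 probes held 90%. Of the 20 brightest, 18 probes were among the 20 brightest of all 3 samples.

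miR-499, the heart muscle miRNA of the myosin locus, was brightest in every sample, with signals of 52957, 48999 and 52462 in replicates 1, 2 and 3. miR-126, which sustains vessel integrity and vascular growth factor signalling in endothelial cells, gave 41200, 38376 and 39335. Both were lowest in the Cy5 sample, in signal and in share. miR-26a gave 37394, 39521 and 38938, and miR-26b gave 33108, 37260 and 37023. The miR-26 pair is broadly expressed and came next by mean share. miR-1, which in vertebrates promotes muscle differentiation, followed with 31434, 34708 and 29386. let-7a, the first member of a family that marks differentiated tissue, gave 27982, 35122 and 30580.

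The next probes by mean share were miR-30c, miR-21, let-7f and let-7c. miR-21, a miRNA of fibroblasts and injured tissue in mammals, gave 24018, 32753 and 25556. miR-451, which in zebrafish is needed for red blood cell maturation, gave 21589, 27795 and 23763. miR-21 was highest in the Cy5 sample, and so was miR-451. The remaining members of the 20 were miR-125b, miR-125a, miR-125c, miR-23b, miR-23a, miR-30b, miR-100, miR-27b and miR-92a, with mean shares from 2.61% down to 1.57%.

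The exact order within the 20 was not resolved. Of 19 pairs of neighbours in the order, 6 stood in the same order in all 3 samples, and in 1 pair, miR-100 and miR-27b, the ranges of the shares did not overlap. miR-499 stood above miR-126 in each sample, but its share in replicate 2, 4.83%, lay below that of miR-126 in replicate 1, 4.93%. let-7f and let-7c differed by 0.0150 percentage points in mean share, far within their SDs of 0.150 and 0.297.

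Grouping the probes by seed gave 134 seeds, of which 41 were shared by more than 1 probe. Those 41 families held 125 probes and 74.7% of the signal. In 21 of them every member was above background in all 3 samples, in 10 some members were, and in 10 none was. The 5 largest families held 43.6% of the signal and the 10 largest 64.7%. Many probes of a family are nearly alike in sequence, and whether they read each other's RNA was not tested. The same RNA could thus count in more than 1 probe. Families also differ in their number of probes, so their shares are sums of probe signal.

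let-7, whose members lower growth-promoting genes in differentiated cells, was the largest family at 14.4% ± 1.16 of the signal (SD, n = 3). Its share was 13.6%, 15.7% and 13.9% in replicates 1, 2 and 3, with the highest value in the Cy5 sample. All 10 members were above background in every sample. let-7a led with 23.2% ± 1.30 of the family's signal, ahead of let-7f and let-7c at 2.85% and 2.83% of all signal. let-7b, let-7e and let-7d held 1.51%, 1.41% and 1.25%, and let-7h, let-7g, let-7j and let-7i held 0.535%, 0.430%, 0.189% and 0.0850%. No let-7 member held more than 23.2% of the family in its mean, so the family's share was spread over several probes of like sequence.

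The miR-26 family held 7.97% ± 0.436 through 2 probes of nearly equal brightness, with miR-26a at 51.9% ± 0.972 of it. The miR-30 family, which in mammals is abundant in heart muscle cells, held 7.92% ± 0.730 in 5 members, led by miR-30c at 39.1% ± 0.260. Behind it stood miR-30b at 2.05% of all signal, miR-30d at 1.19%, miR-30e at 0.951% and miR-30a at 0.627%. The miR-125 family, relatives of the first miRNA found, lin-4 of Caenorhabditis elegans, held 7.62% ± 0.888, spread evenly over miR-125b (34.2% of it), miR-125a and miR-125c. The miR-27 family held 5.63% ± 0.604 in 5 members from miR-27b at 1.72% to miR-27d at 0.794%. miR-23, made with miR-27 and miR-24 from clusters linked to endothelial biology in mammals, held 4.56% ± 0.442 in its 2 members.

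Some families were carried by 1 member. miR-1 held 99.9% of the seed it shares with miR-206, whose signals of 38.5, 29.6 and 27.6 passed the threshold in 2 samples. miR-22a, abundant in mammalian heart muscle, held 95.2% ± 3.49 of the miR-22 seed family. Others were divided. The seed of miR-92a was split between miR-92a (56.8% ± 1.37 of it), miR-92b and miR-25, while miR-363, with the same seed, passed in 0 samples. miR-100 held 59.0% ± 0.0150 of the seed shared with miR-99, a ratio that barely moved between samples. The 7 members of the miR-15/16 seed together held 3.26% ± 0.294, led by miR-15a at 0.788% of all signal. In that family miR-16b held 0.640%, miR-457b 0.531%, miR-16c 0.440%, miR-15b 0.409%, miR-457a 0.233% and miR-16a 0.221%. miR-15 and miR-16 restrain the cell cycle in mammals.

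**Figure D2:**
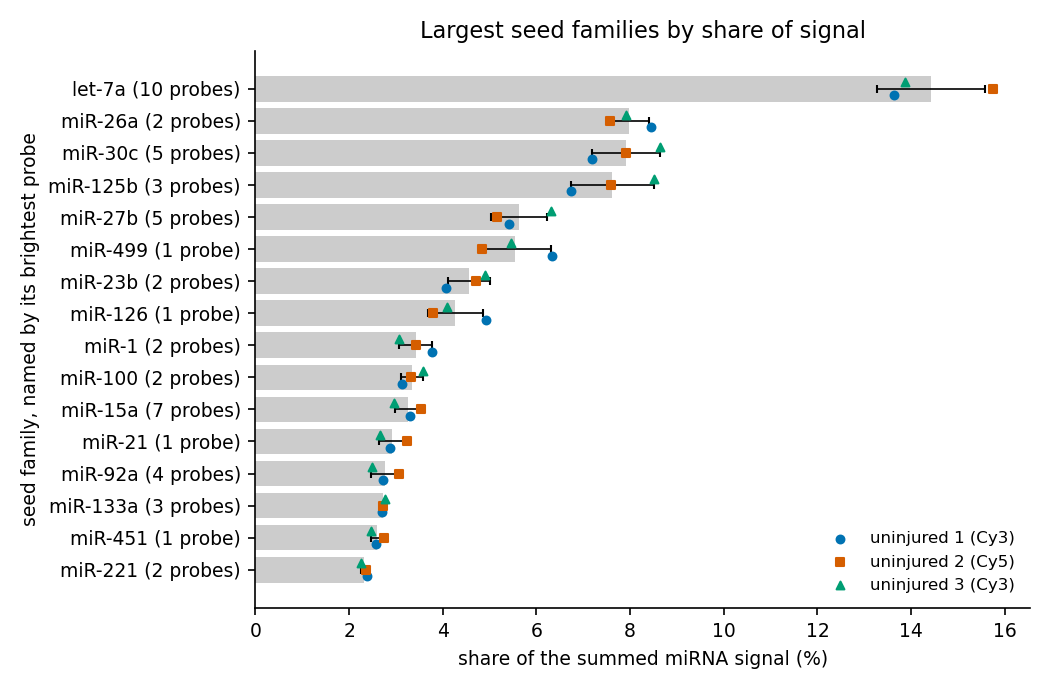
Share of the summed miRNA signal (percent) held by the largest seed families, each named by its brightest probe. Bars are means over the 3 uninjured samples, error bars the SD, and markers the single samples. The 10 probes of let-7 sum to 14.4%, and the single-probe seeds of miR-499 and miR-126 reach 5.54% and 4.27%. Whether probes of a family read each other's RNA was not tested.

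The array was read for the cell types a heart can hold. Lists of miRNAs known from each cell type gave counts above background in all 3 samples, to be read against the 58.3% of all probes. Of 8 heart and skeletal muscle probes 6 passed, and the list held 11.7% ± 0.975 of the signal (12.8%, 11.002% and 11.3% in replicates 1, 2 and 3). Besides miR-499 and miR-1 these were miR-133a, miR-133b, miR-133c and miR-133a*. miR-133a, which in vertebrates limits muscle cell proliferation, gave 11528, 13873 and 12716, and miR-133b gave 10621, 12922 and 11602. The seed family of miR-133 held 2.72% ± 0.0341, and its total was steadier than that of miR-133c within it. miR-206, known from skeletal muscle, was near background, and miR-133b* passed in 0 samples. The label heart thus had its muscle miRNAs among its brightest probes.

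Vessel, stromal and blood miRNAs were bright as well. Both smooth muscle probes passed, miR-143 at 10618, 11549 and 11344 and miR-145 at 7533, 7302 and 7005. Both are made from one cluster. All 6 fibroblast and mesenchyme probes passed and held 5.73% ± 0.557, of which miR-21 gave the largest part, followed by miR-199*, miR-214 and miR-29a. miR-29a, which lowers collagen genes in mammals, gave 7147, 8245 and 7084. Of the 2 red blood cell probes miR-451 passed and miR-144 passed in 1 sample, at 10.6, 8.16 and 34.6.

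Of 12 leukocyte probes 7 passed and held 1.83% ± 0.0998, a count at the background share. miR-150, a miRNA of mature lymphocytes in mammals, gave 6622, 5671 and 5341, and was followed by miR-181a, miR-146a and miR-181c. miR-223, known from neutrophils and macrophages, gave 201, 384 and 903. Both arms of miR-142a, a pan-leukocyte hairpin, passed in 0 samples, as did miR-181a*. The leukocyte list therefore held bright and undetected members side by side.

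Probes known from other organs were mostly dim. Of 18 neural probes 4 passed, miR-128, miR-218a, miR-218b and miR-132, and 11 passed in 0 samples. By signal the neural list was not dim, at 1.95% ± 0.149, with miR-128 at 1.02% and miR-218a at 0.638%. miR-128, brain-enriched in mammals, was bright at 8931, 10991 and 8608. miR-218a, which lies in introns of slit genes and acts in zebrafish heart development, gave 5744, 7160 and 4985. Those undetected were miR-124, miR-9, miR-9*, miR-137, miR-219, miR-7a, miR-7b, miR-132* and miR-153a, miR-153b and miR-153c. miR-124, the most abundant neuronal miRNA of vertebrates, gave 16.6, 7.29 and 19.9.

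Of 8 liver, gut and pancreas probes 3 passed, all near the threshold, and the list held 0.0186% ± 0.00989 of the signal. miR-122, the dominant liver miRNA, gave 38.5, 26.7 and 32.3. Of 9 epithelium and skin probes 6 passed with a summed 0.103% ± 0.0325, led by miR-141 at 204, 226 and 472. Some of the 6 were dim, such as miR-203b, near the threshold at 23.4, 11.4 and 39.2. miR-205 and miR-203a, both skin miRNAs, passed in 0 samples, as did miR-203b*. Of 6 sensory organ probes only miR-184 passed in all 3, and miR-96 and miR-182* passed in none. The levels of the epithelial list moved with replicate 3, which held 0.140% against 0.0901% and 0.0796%.

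No probe of the developmental lists, miR-430 and Hox cluster, passed in all 3 samples. All 5 miR-430 probes, whose miRNAs clear maternal messenger RNA in the early zebrafish embryo, passed in 0 samples and summed to 0.00615% ± 0.00417 of the signal. Of 8 Hox cluster probes 0 passed in all 3. miR-10a, miR-10a*, miR-10d, miR-10d*, miR-196a and miR-196b passed in none. miR-10b passed in 2 samples, at 19.1, 3.31 and 38.8, and miR-10c passed in 1. Of 5 hypoxia and stress probes 3 passed, with miR-210*, from a hypoxia-induced hairpin, at 7971, 10256 and 8701 and miR-34, a p53 target in mammals, at 102, 62.9 and 67.2. miR-34c passed in 0 samples.

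**Figure D3:**
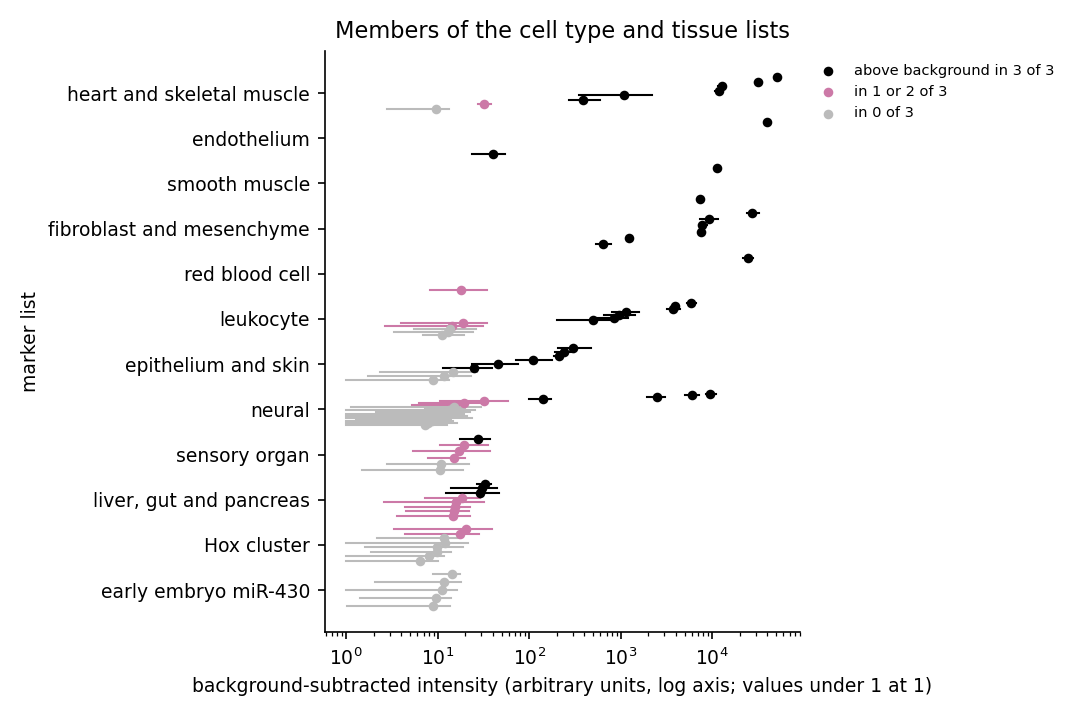
Background-subtracted intensity (log axis, arbitrary linear units, values under 1 drawn at 1) of each member of the cell type and organ lists, as the mean over the 3 uninjured samples with a line from the lowest to the highest sample. Colour gives in how many samples the probe was above background; muscle, endothelial, smooth muscle, mesenchymal and red cell lists reach the highest intensities, and all miR-430 members lie at background.

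The other lists were families of widely expressed miRNAs. The miR-23/27/24 clusters held 11.1% ± 0.918, with 8 of 9 probes above background and miR-27c* at background. The miR-99/100 and miR-125 list held 10.96% ± 1.12 with 5 of 5, and the miR-30 list, both arms of miR-30e included, 8.79% ± 0.623 with 6 of 6. Of 20 probes of the miR-17-92 clusters, which promote proliferation, 13 passed and held 5.19% ± 0.272. miR-92a led them, at 12592, 17802 and 13877, followed by miR-17a, miR-20a and miR-92b. Those at background in every sample were miR-18b, miR-363, miR-19a* and miR-19b*. Of 9 miR-15/16 probes 8 passed and held 3.38% ± 0.299, with miR-15a* as the exception. Both miR-221 and miR-222, a linked pair known from vessels, passed, with 2.33% ± 0.0731. Of 6 probes of the miR-130 and miR-301 list 3 passed, with 0.648% ± 0.0921, led by miR-130b, and miR-301b and miR-301c were at background. The whole seed family of miR-130b had 8 probes, of which 5 passed, and held 0.889% ± 0.103. In the family of miR-148 and miR-152, miR-152 passed at 1018, 1070 and 1048, and miR-148 passed in 1 sample.

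The 64 probes that passed in 0 samples had a mean signal of at most 14.9 and summed to 0.0695% of the signal. Their median was 11.4 in replicate 1, 1.42 in replicate 2 and 16.5 in replicate 3. The mismatched calibration probes, so called by their names, had medians of 12.9, 2.32 and 19.5 over the 24 that remain without PUC2MM, Ctr09-3M05 and Ctr09-3M10. The undetected miRNA probes read close to these controls in each sample, though both sets leave out the brighter probes of their kind. In the Cy5 sample they lay near 0, and in both Cy3 samples somewhat above it. Besides those named, probes at background in every sample included miR-135a, miR-135b and miR-135c, miR-190, miR-190b, miR-202, miR-202*, miR-212, miR-220, miR-459, miR-461 and miR-722. miR-723, miR-725, miR-726, miR-728, miR-729, miR-734, miR-736, miR-737 and miR-740, known from fish, were at background too. A probe under this threshold does not show that its miRNA is absent.

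The threshold cut through a continuous range. Just below it, by the lowest multiple of the empty-spot SD, lay miR-730 at 2.45, miR-206 at 2.69, miR-19a at 2.70, miR-193a at 2.75 and miR-129* at 2.94. Just above lay miR-20a* at 3.08, miR-122 at 3.14, miR-203b at 3.19, miR-216a at 3.40 and miR-727* at 3.41. The probes were also set against the 95th percentile of the mismatched calibration spots. By that limit 110 probes remained when PUC2MM, the brightest mismatched probe by far, was left out after its values were seen. When PUC2MM was kept, 28 remained. The 17 lost without PUC2MM were all dim and included miR-122, miR-184, miR-216a, miR-217, miR-338, miR-732 and miR-34. Also lost were the dimmer arms miR-126*, miR-17a*, miR-20a* and miR-140. Members of the epithelium and skin list, miR-203b among them, were lost too.

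Some fish miRNAs outside the lists were singled out after their values were seen. miR-735 gave 2610, 2498 and 2465, steady across the 3 samples. No gene of the RefSeq table of assembly GRCz12tu carries it as its symbol, so it counted as unmatched below, but the table lists the name as a synonym of rny2, named for a Y RNA, a class of small structured RNA. miR-724 gave 945, 1940 and 1621, lowest in replicate 1. miR-462 and miR-731, an interferon-linked fish pair, gave mean signals of 1432 and 151.

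Both arms of 28 hairpins were on the array, and in 16 of them at least 1 arm was above background in all 3 samples. The sequences of 3 such hairpins are shown for contrast in dominance, with the seed of each arm in capitals. The arms of a hairpin carry different seeds and so different targets.
miR-126: uCGUACCGugaguaauaaugc
miR-126*: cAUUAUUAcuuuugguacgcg
miR-30e: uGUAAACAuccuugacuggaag
miR-30e*: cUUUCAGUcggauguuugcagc
miR-140: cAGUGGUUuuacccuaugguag
miR-140*: uACCACAGgguagaaccacggac
In 8 of the 16 hairpins both arms were above background, in 7 the dimmer arm passed in 0 samples, and in miR-727 1 arm passed in all 3 and the other in 2. The same arm was brighter in all 3 samples in 14 hairpins, the exceptions being miR-30e and miR-727. In the 12 other hairpins neither arm passed in all 3, and in 7 of them, such as miR-9, miR-10a and miR-202, both arms passed in 0 samples.

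The largest measured imbalance was that of miR-126, whose arms gave 41200, 38376 and 39335 against 23.6, 43.7 and 53.8. The fold was 1039 from the mean log2 ratio of 10.02 ± 0.66 (SD, n = 3). miR-20a was 236-fold above miR-20a* (log2 ratio 7.88 ± 0.48) and miR-17a 201-fold above miR-17a* (7.65 ± 0.62). miR-133a was 35.0-fold above miR-133a*, whose signals were 295, 275 and 586. miR-126*, miR-20a* and miR-17a* were not above the mismatched controls in all 3 samples, even without PUC2MM, so against those controls their folds are lower bounds.

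Where the dimmer arm was at background, the fold is a lower bound against the lowest signal among probes above background, or the arm's own signal where higher, taken from the mean log2 values of the 3 samples. On that scale miR-133b was at least 636-fold above its other arm, miR-27c at least 483-fold, miR-15a at least 401-fold and miR-181a at least 216-fold. The bounds were lowest in replicate 3, at 368, 344, 226 and 134 for these hairpins. miR-19b was at least 55.1-fold and miR-132 at least 7.42-fold above theirs in the mean, and 31.5-fold and 4.68-fold in replicate 3. miR-203b was itself so near the threshold that no fold is given for it. The miR-133b sequence differs from that of miR-133a only in its last base, and whether its probe read miR-133a was not tested.

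In 3 hairpins the arm named with the asterisk was the brighter one in all 3 samples. miR-140*, a strand of a cartilage-enriched hairpin, gave 2488, 1542 and 1908 against 32.2, 17.4 and 45.0 for miR-140, a 66.2-fold difference (log2 ratio 6.05 ± 0.57) in which miR-140 too was not above the mismatched controls. miR-199*, of a mesenchymal hairpin in which both strands are known to act, gave 8739, 11444 and 7360 against 616, 533 and 781 for miR-199, or 14.2-fold (3.83 ± 0.59). miR-210* was 2.75-fold above miR-210 (1.46 ± 0.31), which gave 3713, 3283 and 2799. Both arms of miR-30e were bright and nearly equal, 7895, 9788 and 9066 against 7775, 10165 and 6702 for miR-30e*. Their log2 ratio of 0.13 ± 0.26 was within its spread.

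**Figure D4:**
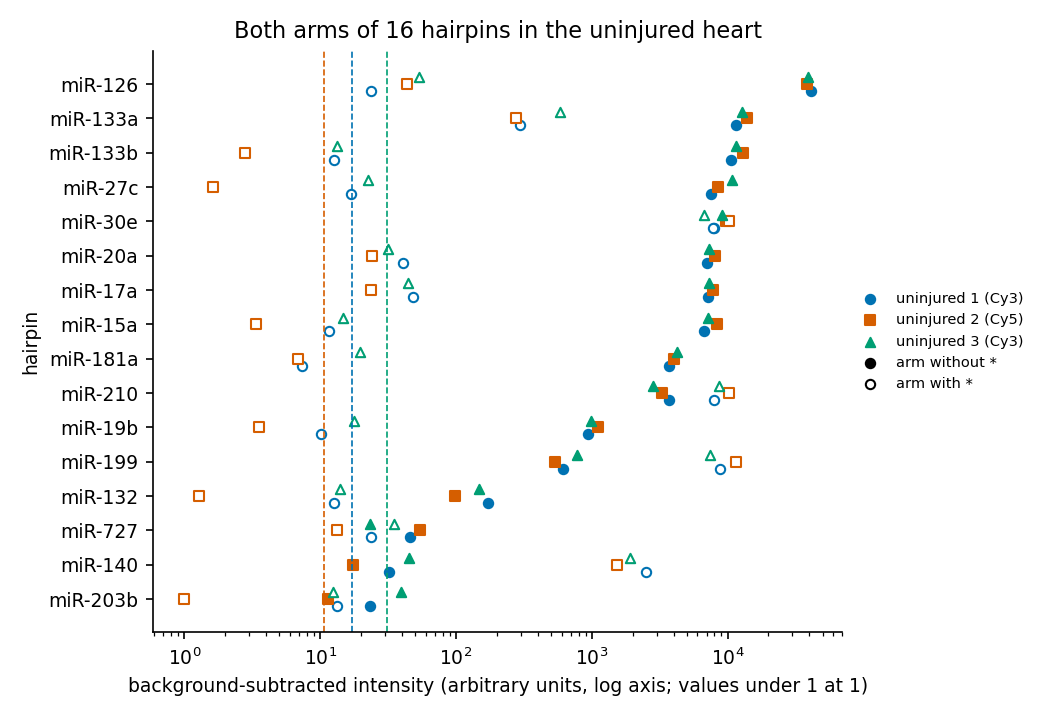
Background-subtracted intensity (log axis, arbitrary linear units, values under 1 drawn at 1) of both arms of 16 hairpins, filled for the arm without an asterisk and open for the arm with one, with a marker for each of the 3 uninjured samples and dashed lines at their thresholds. The open markers lie to the right for miR-210, miR-199 and miR-140, and both arms lie together for miR-30e.

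Of the 218 probes 214 matched a gene in the same RefSeq table, from which only names and neighbourhood were taken. Genes within 10 kb of each other formed 51 groups with more than 1 miRNA. In 24 groups every probe was above background in all 3 samples, in 5 none was, and in 22 some were. In several groups of neighbouring genes the signals were far apart. miR-451 had a mean signal of 24382 and its neighbour miR-144 had 17.8. miR-133b, at 11715, and miR-133c, at 1091, both lie beside copies of miR-206, at 31.9. miR-130b, at 4344, lies beside miR-301b, at 10.4, and miR-20b, at 4617, beside miR-363, at 10.3. Of these miRNAs only miR-206 has more than 1 gene copy in the table, and its probe does not tell the copies apart. The miR-133b sequence differs from that of miR-133a, which has other genes, only in its last base. The miR-133b probe gave 92.1%, 93.1% and 91.2% of the miR-133a signal in replicates 1, 2 and 3. How far it read miR-133a was not tested.

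In other groups the probes of neighbouring genes were bright together. Most of the miRNAs named here have more than 1 gene copy, such as let-7a with 6. Their probes do not tell the copies apart, so the signal of 1 group is not known. Copies of miR-100, let-7a and miR-125b lie together in 2 places, and the mean signals of these probes were 18494, 31228 and 24528. miR-99, let-7c and miR-125c form another such group, at 12877, 26695 and 23539. miR-1 and miR-133a also neighbour each other, at 31843 and 12706. miR-23b, miR-27b and miR-24 had 22700, 16098 and 8355. The cluster of miR-17a, miR-18a, miR-19a, miR-19b, miR-20a and miR-92a held bright and dim members, with means from 14757 for miR-92a down to 44.2 for miR-18a and 33.7 for miR-19a.

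The relative spread between samples was small for most probes. The median SD of the log2 share was 0.22 over the 127 probes, and 33 probes had an SD above 0.5. Of these 33, the share was highest in replicate 3 in 28. Over all 127 probes it was highest in replicate 1 in 37, in replicate 2 in 36 and in replicate 3 in 54. The 127 had to pass the threshold of every sample, which was highest in replicate 3, at 30.9 against 17.1 and 10.8. A dim probe thus entered these counts only if its signal in replicate 3 passed that limit. For dim probes the counts are therefore partly set by the choice of probes. Without replicate 3 the median SD was 0.15 and 23 probes lay above 0.5. Without replicate 1 they were 0.20 and 28, and without replicate 2 they were 0.21 and 22. Many of the 33 were dim, and miR-338, miR-732 and miR-216a among them were not above the mismatched controls even without PUC2MM. The probes never above background also had their highest median, 16.5, in replicate 3, against 11.4 and 1.42 in replicates 1 and 2. The part of this in the spread was not tested.

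The 8 probes with the largest SD were all highest in replicate 3. They were taken from the 127, so the dim ones among them had to pass the highest threshold, that of replicate 3. miR-101b, a relative of miR-101a, which in mammals targets the chromatin enzyme Ezh2, led with an SD of 1.83 and signals of 30.8, 29.2 and 279. miR-133c followed at 1.25, with signals of 351, 727 and 2194. miR-338, known from glia in mammals, gave 30.2, 19.4 and 99.999. The remainder were miR-732, miR-216a, miR-365, miR-22b and miR-223, with SDs of 1.00 to 1.04. miR-365 gave 93.1, 89.3 and 325, and miR-22b gave 273, 420 and 1160.

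Some of these probes differ from a brighter one by 1 or 2 bases. Their pairs are shown first, followed by 2 pairs from outside the 8 probes, miR-100 with miR-99 and miR-125b with miR-125c. Differing bases are in capitals and positions are counted from 1 at the 5′ end of the brighter sequence. In each pair the seed is the same.
miR-101a: uacaguacuGugauaacugaag
miR-101b: uacaguacuAugauaacugaag
miR-133b: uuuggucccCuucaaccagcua
miR-133c: uuuggucccUuucaaccagcua
miR-22a: aagcugccagCugaagaAcugu
miR-22b: aagcugccagUugaagaGcugu
miR-100: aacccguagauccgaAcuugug
miR-99: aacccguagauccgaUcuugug
miR-125b: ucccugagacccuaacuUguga
miR-125c: ucccugagacccuaacuCguga
miR-101b differs from miR-101a by G10A, and its signal was 0.995%, 1.03% and 8.91% of that of miR-101a in replicates 1, 2 and 3. miR-133c differs from miR-133b by C10U, and gave 3.31%, 5.62% and 18.9% of it. miR-22b differs from miR-22a by C11U and A18G, and gave 2.50%, 3.16% and 9.61%. In all 3 pairs the dimmer probe was highest in replicate 3 by a wide margin, while its brighter partner moved little. miR-101a itself gave 3091, 2825 and 3130. let-7g, at G12U from let-7a, gave 8.24%, 11.6% and 19.2% of it, and miR-19a, at C11U from miR-19b, 1.65%, 1.43% and 7.03%.

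Over all 50 pairs within 2 bases of each other with at least 1 member above background in all 3 samples, the ratio was highest in replicate 3 in 33. In the 11 pairs whose mean ratio was under 20% it was highest there in 11 of 11, though these pairs share members. Other pairs had high and steady ratios. miR-99, at A16U from miR-100, gave 69.6%, 69.7% and 69.6% of it. miR-125c, at U18C from miR-125b, gave 96.2%, 95.3% and 96.4%, and miR-107, at G22C from miR-103, 95.4%, 97.9% and 101%. Whether such probes read each other's RNA was not tested.

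The added calibration sequences gave values for mismatched probes on the same arrays. Ctr09-3M10 gave 0.209%, 0.289% and 1.94% of its partner Ctr09-3P, and Ctr09-3M05 gave 0.105%, 0.0830% and 0.329%, both highest in replicate 3. PUC2MM gave 75.2%, 73.4% and 57.5% of PUC2PM, lowest in replicate 3. Every other mismatched probe with a partner above 1000 gave at most 0.394%. Of all 11 such probes the percent was highest in replicate 3 in 8 and in replicate 1 in 3, namely PUC2MM, Ctr01-3M05 and Ctr01-3M10. These probes are called mismatched by their names only. How their mismatches compare in number and position with those of the miRNA pairs was not examined. The part of mismatched binding in the miRNA pairs was not tested.

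**Figure D5:**
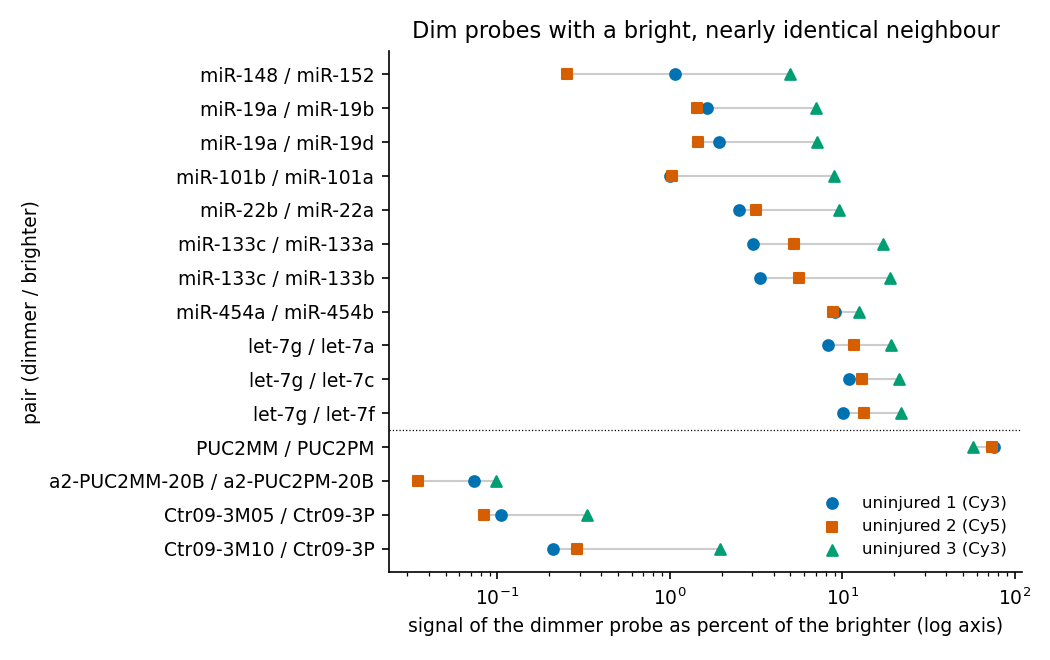
Signal of the dimmer probe as a percent of the brighter one (log axis) in the 11 pairs of miRNA probes that differ by 1 or 2 bases and have a mean ratio under 20%, with a marker for each of the 3 uninjured samples. Below the dotted line are the mismatched calibration probes above background in all 3 samples. Replicate 3 is the highest marker in every miRNA pair shown and in the calibration pairs shown other than PUC2MM, where it is the lowest. The calibration probes shown had to pass the threshold of replicate 3, the highest. Ctr01-3M05 and Ctr01-3M10, whose percents were highest in replicate 1, are not shown.

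Sequence features that did not enter the choice of the bright probes were compared. A 5′ U, the base preferred by Argonaute, was found in 16 of the 20 brightest (80%), in 64.6% of the 127 probes above background, in 53.1% of the 64 never above it and in 61.0% of all probes. Several of the 20 brightest are family members of like sequence, so they are not separate cases. Median GC content was 41.9% in the 20 brightest, 45.5% in the 127, 40.9% in the 64 and 43.2% in all probes. Of the probes in the class of lowest GC 49.5% were above background in all 3 samples, of those in the middle class 59.5% and of those in the highest 69.9%. Spearman's rho between GC content and signal over the 218 probes was 0.264, 0.275 and 0.185 in replicates 1, 2 and 3. Among the 127 probes above background it was -0.057, -0.084 and -0.086. GC content in the 20 brightest ran from 27.3%, that of miR-1, to 54.5%. The part of GC content in detection was not tested.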

How the data were processed

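Small RNA of pooled hearts was tailed, tagged, stained with Cy3 or Cy5 and read on a 1-colour array by a service company, per the labels' protocols. The deposited spot files give the mean intensity of each spot on a linear scale, per the file headers, with no background subtracted. The authors' value table of the whole series holds processed intensities, whose background method and scaling remain unknown (not given in the sources used here). It served as an alternative, with column medians of 68.9, 91.9 and 73.2 for the 3 uninjured samples, and its other 3 columns were not used. Its r with the log2 signals computed here was 0.993 to 0.998 over the 127 probes above background in all 3 samples. That r does not cover the dimmer probes.

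The local background of a spot was the median of the 16 nearest empty spots (of 1060). Subtracted intensities were averaged over the 12 spots of a probe, and values below 0 counted as 0 in shares. A probe above 3 SDs of the subtracted empty spots was above background. No scaling between arrays was applied and no test was run, since shares and ratios were taken within a sample. Brightest spots reached 54012 to 58536. The steps were tested on simulated data of 218 probes: 0 of 60 absent probes and 40 of 40 probes set at 6 SDs were called in each simulated array. The simulated absent probes held only noise drawn from the empty spots. Undetected probes of the Cy3 samples read somewhat above 0, so the simulation cannot tell how often such probes are called. Python 3.11.15, numpy 2.4.6, pandas 2.3.3 and, for the alternative with normexp and offset 50, limma 3.58.1 in R 4.3.3 were used.

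The members and lists were chosen with earlier results of these data known. Named were the 20 probes with the largest mean share, all arm pairs with an arm above background in all 3 samples, members of the 12 largest seed families, up to 4 of the brightest and all undetected members of each list, the 5 probes on each side of the threshold, the 8 with the largest SD of log2 share, and any probe above background in 0 samples. The pairs of near-identical probes, the 20% limit on their ratio, the SD limit of 0.5, the gene neighbours and the fish miRNAs were chosen after their values were seen.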

Additional observations from a re-analysis of the deposited data

Results flagged for a closer look

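Signal was present in spots outside the miRNA probes. Of the 5S ribosomal RNA probes, which the values above do not use, 4 were above background in all 3 uninjured samples. Their mean signals were 9035 for 5S-b1, 18387 for 5S-b2, 18216 for 5S-b3 and 855 for 5S-b4. 5S-b1 varied most, with 7366, 4104 and 15636 in replicates 1, 2 and 3. Mismatched calibration probes above background in all 3 samples were PUC2MM at a mean of 9061, Ctr09-3M10 at 272, Ctr09-3M05 at 57 and a2-PUC2MM-20B at 21.3.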

How the results depend on the processing

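The 3 arrays and the range of the empty spots limit what can be said of dim probes. Above the 95th percentile of all mismatched calibration spots, a limit set by the bright PUC2MM, 28 probes passed in all 3 samples in place of 127. Without PUC2MM, an alternative chosen after seeing the data, 110 passed. Thresholds of 2 SDs, 5 SDs and 3 robust SDs gave 135, 113 and 134, and a single background per array gave 109. In the authors' deposited table the 10 brightest probes held 38.2% in place of 36.3%, and all 20 of the 20 brightest were shared. Of these 20, 1 moved there by more than its SD between samples, miR-451, at 2.97% in place of 2.60% ± 0.135. Leaving out each replicate in turn gave 128 to 131 probes, 35.6% to 36.7% for the 10 brightest, 13.8% to 14.8% for let-7 and 11.2% to 12.1% for the muscle list. The brightest probe was then at 5.15% to 5.90%. Among hairpins with an arm above background in both remaining samples, 15 to 16 had the same brighter arm in both. The counts of probes and of arm pairs cannot fall when a sample is left out, so they are no check of stability. No paired analysis was possible because no comparison between groups was made.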
